A study of Mus musculus with 26 samples.

Results

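Small nucleolar RNAs (snoRNAs) are short RNAs of the nucleolus that guide the chemical modification of other RNAs, mostly ribosomal RNA. Box C/D snoRNAs, named *Snord*, pair with their target and direct methylation of the ribose, and box H/ACA snoRNAs, named *Snora*, direct the change of uridine to pseudouridine. Most mammalian snoRNAs are cut out of the introns of host genes, and some lie in imprinted domains, where the copies of 1 parent are transcribed. The genes examined here were all rows of the expression table whose symbol begins with Snora or Snord followed by a number. This gave 110 of 24409 genes, of which 74 were box C/D and 36 box H/ACA genes. Only 4 came from imprinted loci, namely *Snord64*, *Snord116*, *Snord116l1* and *Snord116l2* of the *Snrpn*-*Ube3a* domain on chromosome 7, and the table used here had no row for *Snord113*, *Snord114* or *Snord115*.

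RNA-seq was performed on 3 wild-type (WT) and 2 ZFP57 knockout (KO) samples of male embryonic stem (ES) cells, derived from C57BL/6J blastocysts and grown in 2i medium with LIF. ZFP57 is a zinc finger protein that binds methylated DNA at imprinting control regions. The KO lines were homozygous for a zygotic deletion, a targeted disruption of coding exons of *Zfp57* that spares the ZFP57 supplied by the egg to the embryo. In the mutant ES cells themselves the authors found no ZFP57 protein by western blot. Total RNA was depleted of ribosomal RNA and sequenced as paired reads of 150 bases, and expression was deposited as FPKM, fragment numbers scaled for gene length and library size. Differences between KO and WT were tested with limma on log2(FPKM + 0.1), and a gene was called when its adjusted p (Benjamini-Hochberg over all genes tested) was under 0.05. Where ± follows a log2 fold change, it is its SE. The p-values measure the spread between these 5 samples, and with bulk RNA fewer cells of a type and less RNA per cell cannot be told apart.

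The targeted gene was checked first. *Zfp57* had 75.9, 72.3 and 70.5 FPKM in the WT libraries and 19.0 and 21.6 FPKM in the KO libraries, so the groups did not overlap, and reads of the disrupted exons were not separated from the others. The steps between FPKM values implied 50900000 to 58900000 fragments per library. All 7 ES cell marker genes had a mean of at least 1 FPKM, with a summed level of 642 to 661 FPKM in WT and 724 to 783 FPKM in KO. The summed levels were 42.0 to 47.9 and 61.9 to 91.6 FPKM for 4 fibroblast genes, 0.940 to 1.44 and 3.35 to 3.48 FPKM for 4 mesendoderm genes, 15.2 to 17.3 and 11.2 to 13.4 FPKM for 4 trophoblast genes, and 0.440 to 0.470 and 0.670 to 1.16 FPKM for 4 primitive endoderm genes. In each of these last 4 lists at most 1 gene reached a mean of 1 FPKM. The fibroblast sum was almost wholly *Vim*, as *Col1a2* did not exceed 0.01 FPKM in any library. The sums moved with genotype, but genes within a list did not all move alike. Mean FPKM in WT and KO was 0.117 and 0.690 for *Sox7* (called higher) but 0.257 and 0.160 for *Gata4* (not called), both primitive endoderm genes. Among trophoblast genes it was 16.4 and 12.2 for *Tfap2c* (called lower) but 0.0700 and 0.175 for *Cdx2* (not called). The part of these lists in the snoRNA results was not tested.

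The 9 genes whose difference between KO and WT was called both with the variance modelled on FPKM and with it modelled on fragment number are shown here with their sequence, 5′ to 3′ on the strand of the gene, because the results turn on them. Sequence was read from GRCm38 (mm10) at the GENCODE span of each gene. Capitals mark the boxes where the exact letters were found, which for box C/D genes were TGATGA (box C) in the first 20 bases and CTGA (box D) in the last 15, and for box H/ACA genes ACA in the last 8.
Snord64 (chr7:59978808-59978874, minus strand): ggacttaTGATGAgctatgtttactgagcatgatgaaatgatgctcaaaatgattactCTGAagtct
Snord57 (chr2:130278016-130278087, plus strand): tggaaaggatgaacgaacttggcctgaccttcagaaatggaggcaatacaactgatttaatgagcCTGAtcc
Snord69 (chr14:31014287-31014366, minus strand): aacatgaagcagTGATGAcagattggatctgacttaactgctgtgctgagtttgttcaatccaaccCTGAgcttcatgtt
Snord22 (chr19:8725866-8725991, plus strand): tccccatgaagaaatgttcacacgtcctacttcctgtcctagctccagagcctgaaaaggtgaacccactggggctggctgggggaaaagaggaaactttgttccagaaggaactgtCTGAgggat
Snord91a (chr11:74905424-74905516, plus strand): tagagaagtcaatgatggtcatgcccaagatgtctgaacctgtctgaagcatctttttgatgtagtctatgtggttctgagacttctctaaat
Snord96a (chr11:48802032-48802112, plus strand): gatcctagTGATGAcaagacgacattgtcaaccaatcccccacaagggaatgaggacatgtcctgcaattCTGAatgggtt
Snora21 (chr11:97781639-97781775, minus strand): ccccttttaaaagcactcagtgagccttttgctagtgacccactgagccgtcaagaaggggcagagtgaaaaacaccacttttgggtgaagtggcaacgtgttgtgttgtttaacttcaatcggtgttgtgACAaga
Snora33 (chr10:23785347-23785475, minus strand): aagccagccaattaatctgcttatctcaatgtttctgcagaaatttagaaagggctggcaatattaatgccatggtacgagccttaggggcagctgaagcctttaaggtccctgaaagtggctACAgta
Snora47 (chr13:95330600-95330737, plus strand): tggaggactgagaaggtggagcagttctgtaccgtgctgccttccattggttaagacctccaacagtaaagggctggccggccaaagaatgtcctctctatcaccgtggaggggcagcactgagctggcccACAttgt

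Over all members with a GENCODE model, the boxes were found in most snoRNA genes and in few nearby windows. CTGA ended 66 of 72 box C/D genes (91.7%), against 4 windows (5.6%) of the same length placed 500 bp before the gene in chromosome coordinates. TGATGA opened 46 of them (63.9%), against 1 window (1.4%). ACA ended 32 of 34 box H/ACA genes (94.1%), against 2 windows (5.9%). The search was for exact letters on the gene's own strand, so the genes without them, *Snord91a* in both of its boxes among them, are merely without these letters in these windows. The RefSeq models, which gave the gene lengths used here, often stop short of the ends of the GENCODE models, and TGATGA lay in the first 20 bases of 24 of 74 RefSeq box C/D models (32.4%). CTGA ended 72 of the 74 (97.3%) and ACA 94.4% of RefSeq box H/ACA models, so at the 3′ end the boxes were found about as often as in GENCODE or more often. For *Snord64*, RefSeq places the gene at chr7:59978811-59978856 and leaves out 18 bases at the 5′ end and 3 at the 3′ end.

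The members were far shorter than other genes in the table. RefSeq lengths ran from 28 to 221 bp with a median of 82.5 bp (68 bp for box C/D and 119.5 bp for box H/ACA), against a median of 2597 bp over 24260 genes with a length. All 110 had 1 exon, and 105 were shorter than a single read. Of the 106 with a GENCODE model of the same name and place, 11 had the same length in both annotations, 85 were shorter in RefSeq and 10 were longer. A shorter length raises the FPKM that the same fragments give, and for *Snora19*, at 56 bp in RefSeq and 132 bp in GENCODE, the longer model would multiply FPKM by 0.424. Ratios between KO and WT do not depend on this length.

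The short lengths made a high FPKM out of few fragments. On a gene of the median snoRNA length 0.1 FPKM was worth 0.42 to 0.49 fragments, and on a gene of median length 13.2 to 15.3. Among the 103 members above 0, the median level was 18.8 FPKM (interquartile range 6.23 to 33.7) but rested on a median of 75.9 fragments per library, ranging from 2.81 to 1003. Under 20 fragments lay behind 15 of these genes, and 100 or more behind 37. Over all genes tested, the median level of 3.87 FPKM came with 671 fragments. The SD between the WT libraries on the log2 scale had a median of 0.19 for the members, where counting error alone would give 0.17, against 0.08 and 0.06 over all genes tested.

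**Figure D1:**
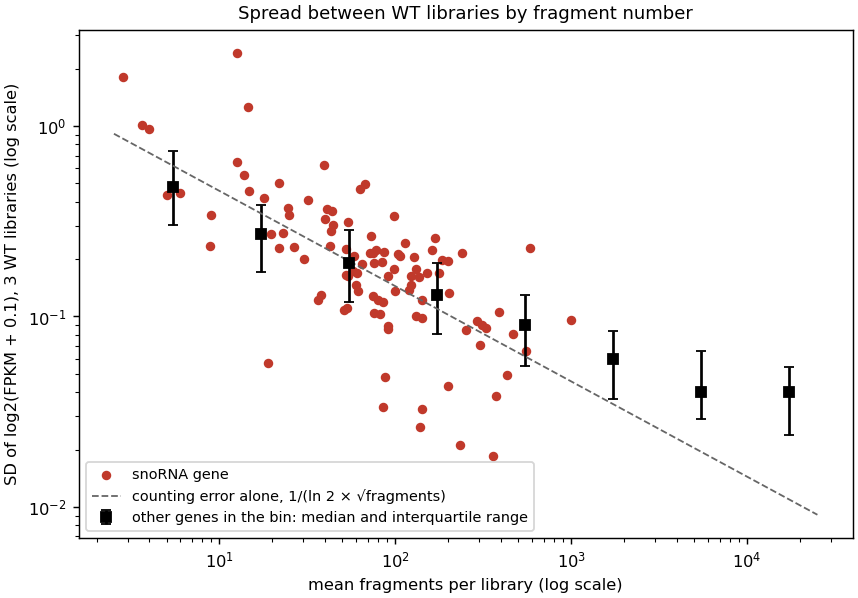
Spread between the 3 WT libraries, as the SD of log2(FPKM + 0.1), against the mean number of fragments per library, both on log scales. Red points are the 103 snoRNA genes above 0, squares are medians of other genes in bins of fragment number with interquartile ranges, and the dashed line is counting error alone. Most snoRNA genes lie near the line, and their median SD against that of other genes is 0.40 against 0.27 at 10 to 30 fragments, 0.19 against 0.19 at 30 to 100, and 0.16 against 0.13 at 100 to 300.

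The 5 most abundant members are given first. *Snord2* had 143, 149 and 157 FPKM in WT and 152 and 148 FPKM in KO, with a log2 fold change of 0.00 (SE 0.05, limma adjusted p = 0.948). It lies in an intron of *Eif4a2*, a translation initiation factor gene, as does *Snora81*, which had 125, 114 and 110.1 FPKM in WT and 102 and 109 FPKM in KO (-0.14 ± 0.06, adjusted p = 0.129). The KO values of *Snora81* lay below those of WT, and those of *Snord2* lay within them. *Snord49a* on chromosome 11 had 95.0, 86.5 and 88.1 FPKM in WT, and the 2 KO libraries, at 101 and 76.5 FPKM, lay on either side of these. *Snord12*, which guides methylation of the large ribosomal subunit RNA, rose slightly, from 87.8, 77.7 and 80.7 FPKM to 95.5 and 93.3 FPKM (ratio 1.15, adjusted p = 0.032), but was not called with the variance modelled on fragment number (adjusted p = 0.136), nor without WT library 2 or 3 or either KO library. *Snord96a*, also on chromosome 11, had 84.0, 94.8 and 89.6 FPKM in WT and fell to 64.5 and 58.3 FPKM in KO, on 351 to 430 fragments and 248 to 260 fragments, which gave a log2 fold change of -0.54 (SE 0.07, adjusted p = 0.0018). With the median of each chromosome subtracted *Snord96a* was at -0.07 (adjusted p = 0.445) and *Snord49a* at 0.44 (adjusted p = 0.027).

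In all, 22 of the 103 members tested were called (21.4%), 15 higher and 7 lower in KO, where 41.1% of all 14612 genes tested were called (18.8% higher and 22.3% lower). The share of members called, below that of all genes, was 19.1% for box C/D genes (13 of 68) and 25.7% for box H/ACA genes (9 of 35). The median log2 fold change was 0.09 for the members and -0.01 over all genes, and 63 of 103 members had a positive value. The 2 KO libraries lay outside the WT range, on the same side, in all 22 called genes and in 30 members in all (29.1%, 21 with KO higher and 9 with KO lower), against 63.4% of all genes (30.3% and 33.1%). The called changes were modest, with ratios of KO over WT from 1.15 to 1.81 for the higher genes and from 0.605 to 0.860 for the lower ones.

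**Figure D2:**
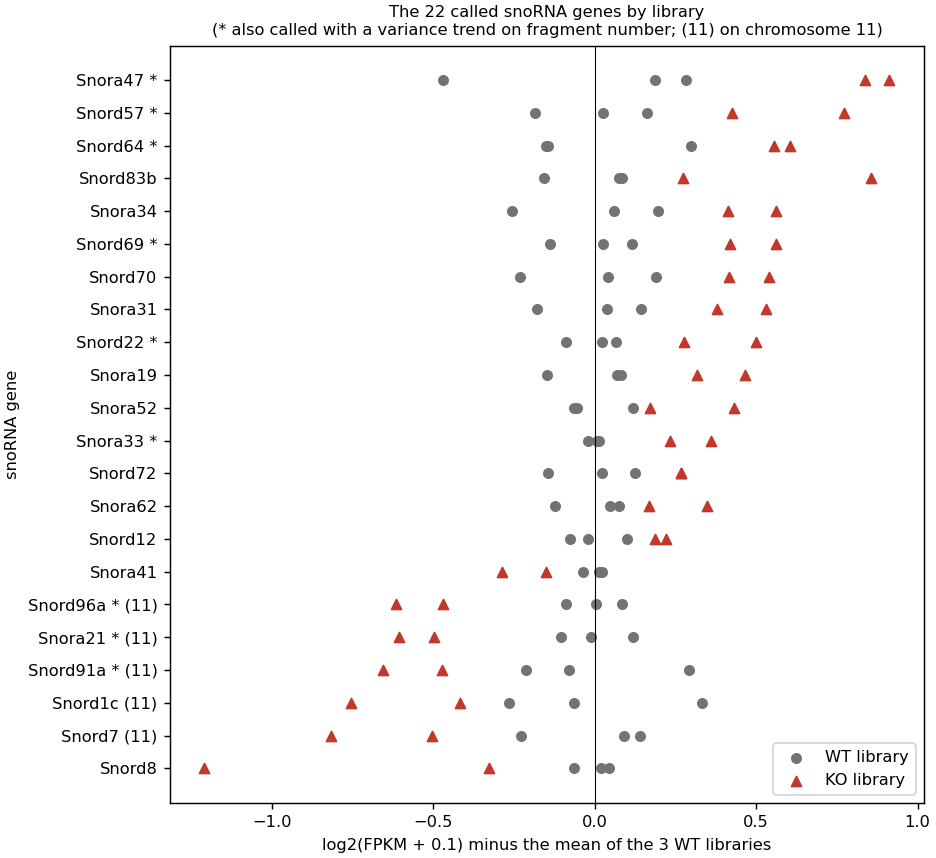
The 22 called snoRNA genes, each library given as log2(FPKM + 0.1) minus the mean of the 3 WT libraries. Circles are WT and triangles KO libraries, a star marks the 9 genes also called with the variance trend on fragment number, and (11) marks the 5 genes on chromosome 11. In all 22 genes the KO libraries lie beyond the WT libraries, with *Snora47* and *Snord57* at the top and *Snord8* at the bottom.

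This count depended on how the variance was modelled. limma draws the variance of a gene towards that of genes of like FPKM, and a snoRNA gene has far fewer fragments than a longer gene at the same FPKM. The median SE of the log2 fold change was 0.13 in this model, below the 0.15 expected from counting alone. With the variance modelled on fragment number, 9 of the 22 members remained called (8.74% of those tested) and no other was added, while 44.0% of all genes were called (20.1% higher and 23.8% lower). These 9 were *Snora33*, *Snora47*, *Snord22*, *Snord57*, *Snord64* and *Snord69*, higher in KO, and *Snora21*, *Snord91a* and *Snord96a*, lower in KO. Other genes with fragment numbers in the interquartile range of the members (39.5 to 139.7) were called in 36.1% of cases, and the 51 members in this range in 23.5%. With fragment numbers modelled, these shares were 40.2% and 7.84%. Without the second KO library the 22 calls became 13, 7 higher and 6 lower.

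**Figure D3:**
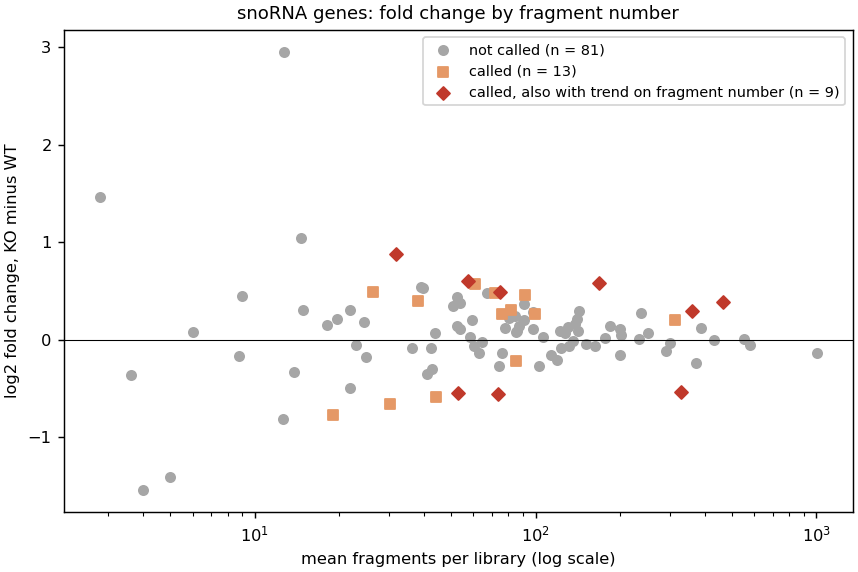
Log2 fold change of the 103 tested snoRNA genes, KO minus WT, against the mean number of fragments per library on a log scale. Grey points were not called, squares were called only with the variance modelled on FPKM, and diamonds with both models. The 5 genes beyond 1 in size all lie under 30 fragments and none of them was called.

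Calls were spread unevenly over depth. Of the 21 tested members with a mean under 30 fragments 2 were called, of 45 members with 30 to 100 fragments 15, of 26 with 100 to 300 fragments 1, and of 11 with more 4. Of other genes, 19.3% were called at 3 to 10 fragments, 26.1% at 10 to 30, 33.3% at 30 to 100, 41.3% at 100 to 300 and 42.8% at 300 to 1000. With the variance modelled on fragment number, the counts of members in the same order were 0, 5, 1 and 3. The shares of other genes in that model were 10.6% at 3 to 10 fragments, 23.6% at 10 to 30, 37.1% at 30 to 100, 46.9% at 100 to 300 and 47.0% at 300 to 1000. The 5 members with a log2 fold change beyond 1 in size, *Snora36b*, *Snord14a*, *Snord66*, *Snord90* and *Snord123*, had between 0 and 32 fragments in each library, and were picked out here after their values were seen. None was called, and their mean log2 differences can depart from the ratio of mean FPKM, as in *Snord90*, with a log2 fold change of -1.41 and a ratio of KO over WT of 0.993.

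*Snord64* was the only imprinted-locus member with a level above 0, and it was higher in KO. It had 50.8, 50.6 and 69.2 FPKM in the WT libraries and 82.7 and 85.5 FPKM in the KO libraries. Both KO values lay above the highest WT value, that of the third WT library. The numbers of fragments were 129, 137 and 162 in WT and 199 and 217 in KO. The mean of 84.1 ± 2.0 FPKM (SD, n = 2) in KO was 1.48 times that of 56.9 ± 11 FPKM (SD, n = 3) in WT, a log2 fold change of 0.58 (SE 0.14, limma adjusted p = 0.018, or 0.017 with the variance modelled on fragment number). The call did not survive the loss of a sample in 4 of 5 cases, with adjusted p between 0.056 and 0.105 without the first or second WT library or either KO library. The log2 fold change stayed between 0.50 and 0.60 in these 4 fits. The call was also lost without a variance trend (adjusted p = 0.051).

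*Snord64* lies in an intron of *Snhg14*, the long non-coding RNA that runs from *Snrpn* through the snoRNA clusters and is transcribed from the paternal copy. *Snhg14* moved in the same direction, from 12.4, 11.8 and 13.2 FPKM to 18.4 and 15.9 FPKM (log2 fold change 0.45 ± 0.08, adjusted p = 0.0061). *Snrpn*, which encodes a splicing protein, had 31.7, 27.2 and 29.6 FPKM in WT and 45.0 and 41.8 FPKM in KO (0.56 ± 0.07, adjusted p = 0.0022). *Snurf*, which shares its transcript, had a log2 fold change of 0.55 (adjusted p = 0.0023). *Ube3a*, which encodes a ubiquitin ligase and is read from the opposite strand, had 14.2, 14.2 and 15.4 FPKM in WT and 16.1 and 15.9 FPKM in KO, and was not called (0.13, adjusted p = 0.097). The nearest ZFP57 peak lay 25222 bp from *Snord64*, at chr7:60004078-60005222, and belonged to the peaks also listed for the hybrid lines. In WT, *Snord64* had 4.56 times the FPKM of *Snhg14*, the highest such ratio among the members, and with its RefSeq length of 46 bp against 67 bp in GENCODE this ratio depends on the annotation.

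**Figure D4:**
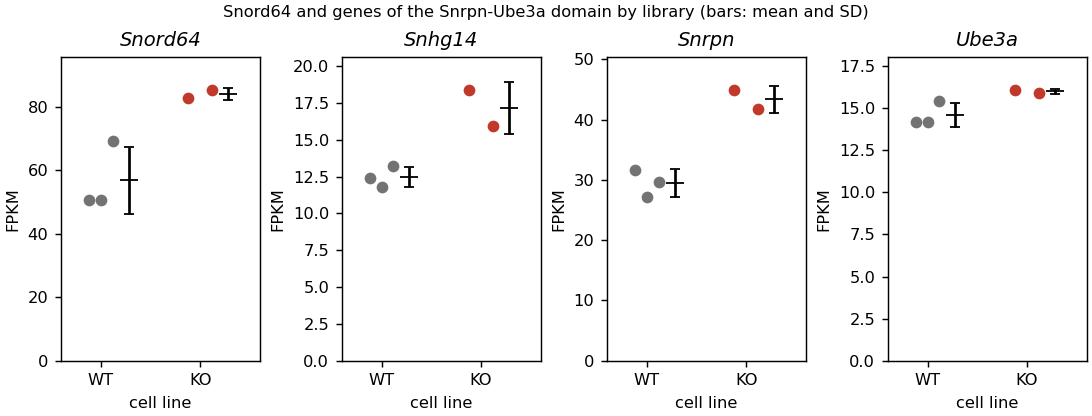
FPKM of *Snord64*, *Snhg14*, *Snrpn* and *Ube3a* in the 3 WT (grey) and 2 KO (red) libraries, each on its own axis from 0, with the mean and SD beside the points. The KO libraries of *Snord64* (82.7 and 85.5 FPKM) lie above all WT libraries, as do those of the other 3 genes, of which *Ube3a* shows the smallest step.

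The other 3 imprinted-locus members were listed at 0 in every library. *Snord116*, *Snord116l1* and *Snord116l2* had the same 90 bases, and this sequence occurred 31 times in the GRCm38 chromosomes, so a fragment from it has no single place. It is shown because the 3 genes cannot be told apart by sequence, and it holds both boxes (in capitals, as before).
Snord116l1 (chr7:59894622-59894711, minus strand): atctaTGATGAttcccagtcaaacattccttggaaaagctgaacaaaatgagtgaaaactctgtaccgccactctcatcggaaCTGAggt
Of the 110 members, 106 occurred once in the genome, and *Snora19*, with 2 copies and overlapping the microRNA gene *Gm38437*, was the only other one with several. Whether the authors' counting left out fragments with several places was not tested. In the other imprinted domain known for snoRNAs, *Dlk1*-*Dio3*, no snoRNA row was at hand, and the non-coding RNAs there were higher in KO. *Rian*, which carries box C/D snoRNAs in its introns, had 22.8, 21.1 and 18.2 FPKM in WT and 129.9 and 110.3 FPKM in KO (log2 fold change 2.53 ± 0.11, adjusted p = 2.7e-04). *Meg3* and *Mirg* had log2 fold changes of 2.18 and 2.94.

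A fixed list of snoRNAs of pre-ribosomal RNA cleavage (*Snord118*, *Snord13*, *Snord14* and *Snora73* where in the table) gave few values. The list is not complete, and other members with a part in this processing were not examined as a group. *Snord118* and 2 members of the *Snord14* family, *Snord14c* and *Snord14d*, were listed at 0 in all 5 libraries. *Snord118* occurred once in the genome, and *Snord14c* and *Snord14d* had 85 of 87 bases in common. As every growing cell uses these RNAs, the value of 0 is given only as it was listed. *Snord14a*, in an intron of the ribosomal protein gene *Rps13*, had 2.47, 0 and 0.890 FPKM in WT and 3.47 and 6.59 FPKM in KO, and was not called (adjusted p = 0.113), although a pseudocount of 1 (adjusted p = 0.044) or leaving out the first WT library (0.048) gave a call. With 12, 0 and 4 fragments in WT and 16 and 32 in KO, the KO values lay above the WT values, but no fold can be given with confidence. *Snora35*, in an intron of the serotonin receptor gene *Htr2c*, was the remaining member at 0, and no member at 0 overlapped an exon of another gene in the table.

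Apart from *Snord64*, 14 members were called higher in KO. The *Snora47* gene had the largest log2 fold change, 0.87 (SE 0.22, adjusted p = 0.022), with 2.44, 4.18 and 3.90 FPKM in WT and 6.52 and 6.18 FPKM in KO, so that the groups did not overlap. The call was lost without either KO library (adjusted p = 0.111 and 0.099) and without a variance trend (0.054). Its 17 to 31 fragments in WT and 43 in each KO library came from within an exon of *Zbed3*, on the same strand, and fragments of the 2 genes cannot be told apart. *Zbed3*, whose protein binds axin in the Wnt pathway, had a log2 fold change of 0.95 (SE 0.13, adjusted p = 0.0029). *Snord57*, a guide for the small ribosomal subunit RNA, lies in an intron of *Nop56*. It had 12.1, 15.4 and 14.0 FPKM in WT and 18.5 and 23.6 FPKM in KO (0.60 ± 0.13, adjusted p = 0.014), whereas *Nop56*, which encodes a core protein of box C/D particles, was not called (0.08, adjusted p = 0.16). The call of *Snord57* was lost without the second KO library (adjusted p = 0.085).

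*Snord69*, in an intron of the nucleostemin gene *Gnl3*, had 20.3, 18.1 and 21.6 FPKM in WT and 29.5 and 26.7 FPKM in KO. Its log2 fold change of 0.49 (SE 0.08, adjusted p = 0.0057) was called under all 16 alternatives in which named genes were recomputed, with adjusted p from 0.0042 to 0.043. *Gnl3* itself was not called, at 84.2, 82.2 and 79.5 FPKM in WT and 86.0 and 83.9 FPKM in KO. *Snord83b*, in *Rpl3*, had 12.7, 10.8 and 12.8 FPKM in WT, and its KO values of 14.6 and 21.9 FPKM were themselves far apart (0.57 ± 0.17, adjusted p = 0.039). Its value was 0.28 (adjusted p = 0.136) without the second KO library and 0.85 without the first, and the call was lost in 9 of 16 alternatives, each of those without 1 WT library among them. *Snora34*, in *Kansl2*, had 2.92, 4.03 and 3.66 FPKM in WT and 4.70 and 5.22 FPKM in KO (0.49 ± 0.14, adjusted p = 0.035), overlaps the microRNA gene *Mir1291*, and rested on 19 to 34 fragments. Neither *Snord83b* nor *Snora34* was called with the variance modelled on fragment number, with adjusted p of 0.062 and 0.156. The call of *Snora34* was also lost without the third WT library or either KO library. *Snora33*, in the ribosomal protein gene *Rps12*, rose from 58.3, 56.9 and 58.0 FPKM to 74.1 and 67.8 FPKM (adjusted p = 0.0043). *Snord22*, one of the snoRNAs in the introns of *Snhg1*, rose from 63.1, 61.2 and 56.6 FPKM to 73.0 and 85.2 FPKM (adjusted p = 0.010). *Snora33* and *Snord22* fall outside the rule for named genes and were singled out after their values were seen.

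Of the 7 members called lower in KO, 5 lay on chromosome 11. These were *Snord7*, *Snord1c*, *Snord91a*, *Snora21* and *Snord96a*, and no member on this chromosome was called higher. The 16 tested members there had a median log2 fold change of -0.26, and 1 of them had a positive value, against a median of 0.13 and 62 positive values among the 87 members on other chromosomes, a difference that was not tested. Chromosome 11 as a whole was lower in KO, with 825 of its 1224 tested genes called lower, 33 called higher and a median of -0.47. When the median of each chromosome was subtracted before the test, the log2 fold changes of the 5 members lay between -0.19 and -0.07 with adjusted p from 0.334 to 0.664, and 13 members were called higher and 1 lower in place of 15 and 7. Off chromosome 11, 15 of 87 members were called higher and 2 lower, where 20.3% and 18.1% of all tested genes off this chromosome were.

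*Snora21*, in an intron of the ribosomal protein gene *Rpl23*, had 8.07, 9.42 and 8.60 FPKM in WT and 6.12 and 5.66 FPKM in KO (log2 fold change -0.55 ± 0.08, adjusted p = 0.0031). *Rpl23* had 322, 306 and 313 FPKM in WT and 244 and 252 FPKM in KO (-0.34 ± 0.04). Host and snoRNA were both lower in KO as measured, but with chromosome medians subtracted *Rpl23* was at 0.13 (adjusted p = 0.049), and the hosts *Tsr1* and *Gnb2l1* described next were at 0.12 each, so their direction turned. *Snord96a* lies in *Gnb2l1*, also called *Rack1*, which encodes a scaffold protein of the small ribosomal subunit and had a log2 fold change of -0.35 (SE 0.06, adjusted p = 0.0053). *Snord91a*, in *Tsr1*, a gene for maturation of the small ribosomal subunit, had 24.2, 22.1 and 31.4 FPKM in WT and 16.2 and 18.4 FPKM in KO (-0.56 ± 0.15, adjusted p = 0.026), and *Tsr1* had a log2 fold change of -0.35. The call of *Snord91a* was lost in 6 of 16 alternatives, among them those without the first WT library (adjusted p = 0.055) or without either KO library (0.145 and 0.077). An exon of *Srr* overlaps *Snord91a* on the other strand. *Snord1c*, in *1810032O08Rik* (*Snhg16* in RefSeq), had 14.9, 11.3 and 9.82 FPKM in WT and 8.82 and 6.97 FPKM in KO. *Snord7*, a guide for the spliceosomal U6 RNA, had 7.17, 7.43 and 5.73 FPKM in WT and 3.78 and 4.72 FPKM in KO, and lies within an exon of the non-coding gene *AI450353* (-0.29, adjusted p = 0.056). The adjusted p of *Snord1c* and *Snord7* with the variance modelled on fragment number were 0.079 and 0.056. Leaving out single libraries also ended the calls of *Snord1c* (the first or second WT or either KO library) and *Snord7* (the first KO library).

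Off chromosome 11, *Snord8*, another guide for U6, had 4.21, 4.29 and 3.97 FPKM in WT and 1.74 and 3.29 FPKM in KO. The KO libraries differed more from each other, at 9 and 18 fragments, than the WT libraries did, at 20 to 25 fragments. The log2 fold change of -0.77 (SE 0.24, adjusted p = 0.045) was not called with the variance modelled on fragment number (adjusted p = 0.087) or without any single WT library (adjusted p from 0.099 to 0.122). It was -0.33 without the first KO library and -1.21 without the second. Its host *Chd8*, which encodes a chromatin remodeller, was slightly lower in KO, with a log2 fold change of -0.19 (SE 0.04, adjusted p = 0.0083).

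The members were then compared with the ZFP57 peaks. Of 1423 peaks called in WT cells of this background, none lay within 5 kb of a snoRNA gene, and 1 member (0.909%) had a peak within 20 kb, against 2.07% and 4.25% of all genes, whose spans are longer. This was *Snord91a*, with a peak 13801 bp away at chr11:74891370-74891645. It was not among the peaks listed for the hybrid lines. Within 50 kb of a peak lay 7 members (6.36%) and 8.11% of all genes. Of these 7 members *Snord64* and *Snord91a* were called, where 21.4% of all tested members and 41.1% of all tested genes were.

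Host genes were assigned by position alone. By this rule 107 members lay in 77 host genes, 101 of them in introns and 6 within exons, and 59 of the hosts code for protein. *Snord89*, *Snord104* and *Snord118* had no host in the table. Of 75 hosts tested 37 were called (49.3%), 26 higher and 11 lower, where 41.1% of all genes were. The hosts had a median of 11587 fragments, and among genes other than the members 54.2% were called at 10000 to 30000 fragments. The 37 calls became 24 without WT replicate 3 and 22 without a variance trend. Of the 11 lower hosts 5 lay on chromosome 11, and with chromosome medians subtracted 27 hosts were called higher and 6 lower. Over all tested genes 18.8% were called higher and 22.3% lower. Among 23 ribosomal protein hosts 10 were called higher and 2 lower, with a median log2 fold change of 0.14. Of 10 non-coding hosts with a *Snhg* symbol or the symbol *Gas5* 6 were called higher and none lower, with all 10 values positive. *1810032O08Rik*, a *Snhg* gene under another symbol, is not in this list and fell.

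The changes of members and hosts ran together in part. Over 101 pairs, Pearson's r between the log2 fold changes was 0.53 and Spearman's rho 0.51, and 70 pairs had the same sign. In 6 of these pairs the member lies within a host exon, where both can count the same fragments, and over the 95 intronic pairs r was 0.5, rho 0.48 and 65 pairs had the same sign. Pairs share libraries, chromosomes and, for 52 members in 22 hosts, the host itself, so this is a description across genes. Restricted to the 36 pairs whose member had 100 fragments or more, r was 0.51 and rho 0.3. Of the 20 called members in introns, 12 had a host called in the same direction, none a host called in the opposite direction, and 8 a host that was not called. Of the 12 pairs 4 lay on chromosome 11, and with chromosome medians subtracted 13 intronic members were called, 9 with a host called in the same direction and 4 with a host not called. Over the 82 intronic pairs off chromosome 11, r was 0.47 and rho 0.4. Over all 101 pairs 22 members were called, and 13 of these had a called host. In turn 37 members that were not called had a host that was, and 49.3% of all tested hosts were called. Whether called members had a called host more often than the others was not tested. Levels were related more loosely (r = 0.32 and rho = 0.23 on mean log2 FPKM). The median member had 0.189 times the WT FPKM of its host, and 19 members had more than their host.

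**Figure D5:**
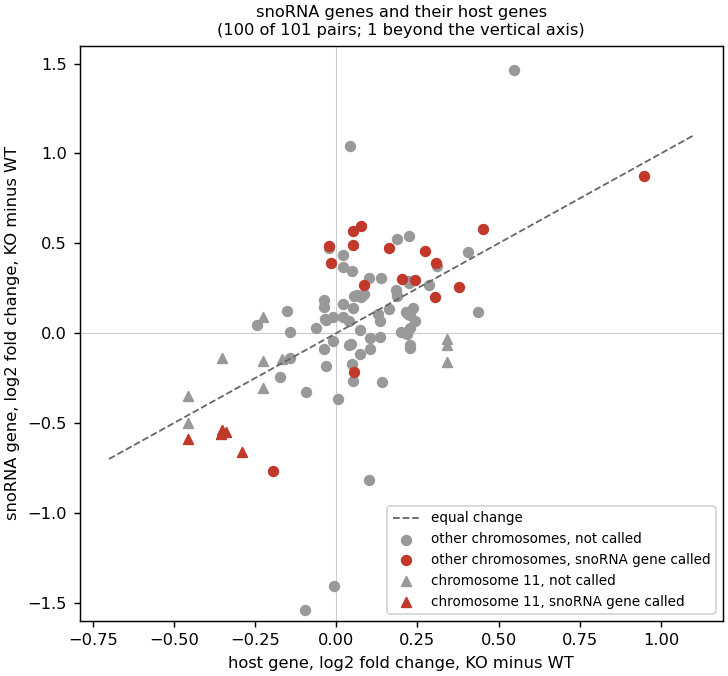
Log2 fold change, KO minus WT, of each snoRNA gene against that of its host gene. Red marks called snoRNA genes, triangles chromosome 11, and the dashed line equal change. Of 101 pairs, 70 have the same sign, and *Snord14a*, at 2.95, lies beyond the vertical axis.

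Members of a single host did not always follow it. *Snhg12* was higher in KO (0.23, adjusted p = 0.014), and its 4 members *Snora16a*, *Snora44*, *Snora61* and *Snord99* had values from -0.08 to 0.10 with none called. On chromosome 11, *2410006H16Rik* had 118, 111 and 116 FPKM in WT and 142 and 149 FPKM in KO (0.34 ± 0.04, adjusted p = 0.0021), and its members *Snord49a*, *Snord49b* and *Snord65* lay between -0.16 and -0.03. With chromosome medians subtracted the host was at 0.81 and *Snord49a* at 0.44 (adjusted p = 0.027), so both were then called higher. In *1810032O08Rik*, also on chromosome 11, the host (-0.46, adjusted p = 0.0049) and its members *Snord1a*, *Snord1b* and *Snord1c* (-0.59 to -0.35) all had negative values, 1 member being called, but with chromosome medians subtracted the host was at 0.01 and *Snord1c* at -0.12 (adjusted p = 0.657). *Gnl3*, which was not called, held *Snord69* at 0.49 and *Snord19* at -0.27. *Rpl13a*, also not called (0.02), held 4 members with values from 0.09 to 0.44, none called. Whether members differed from their hosts was not tested.

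Genes of the proteins that package snoRNAs had small differences for the most part. Of the box C/D core, *Nop58* was higher in KO (log2 fold change 0.16, adjusted p = 0.012), and *Fbl*, which encodes the methyltransferase fibrillarin, *Nop56* and *Nhp2l1* were not called, at 0.10, 0.08 and -0.05. Of the box H/ACA core, *Dkc1*, which encodes the pseudouridine synthase dyskerin, was higher (0.14, adjusted p = 0.026), and *Gar1* and *Nop10* were not called, at 0.09 and 0.08. *Nhp2* had 62.6, 71.0 and 74.6 FPKM in WT and 50.0 and 47.6 FPKM in KO (-0.50 ± 0.08, adjusted p = 0.0038). Together with 16 genes for assembly and maturation of the particles, 10 of 24 were called, near the background of 41.1%. The 10 calls became 6 without WT replicate 1 or 3 and 5 without a variance trend. *Xrn2* (0.35), *Ruvbl1* (0.25), *Naf1* (0.17) and *Tgs1* (0.14) rose, and *Znhit3* (-0.68), *Coil* (-0.54) and *Rpap3* (-0.17) fell, the last of these with an adjusted p of 0.059 when the variance was modelled on fragment number. *Nhp2*, *Znhit3* and *Coil* all lie on chromosome 11, and with chromosome medians subtracted 6 of the 24 genes were called, 4 higher and 2 lower.

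Other short RNA genes were set beside the members. Of 9 *Scarna* genes, which belong to the Cajal bodies and guide modification of spliceosomal RNAs, 1 was called (11.1%) with a median log2 fold change of 0.20. Of 689 tested microRNA genes 129 were called (18.7%), on a median of 5.61 fragments per library. The *Scarna* genes had a median of 75.2 fragments. Over all tested genes 41.1% were called. Among genes other than the members the share was 19.3% at 3 to 10 fragments and 33.3% at 30 to 100.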

How the data were processed

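RNA-seq of 3 WT and 2 KO samples of the C57BL/6J lines and ZFP57 ChIP-seq peaks were used. The authors deposited FPKM values with 2 decimals for mm10. The counting program, its strand and multi-mapping settings and the annotation are not given in the sources used here. The submitters' processing notes name FastQC 0.11.5, Trim Galore 0.2.7, BWA 0.6.2, STAR 2.5.2, Picard and MACS2 2.1.0 without roles. The authors deposited ZFP57 peaks as positions without a score, for peaks found in at least 2 WT replicates. Their depth is unknown.

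The main test was limma 3.58.1 (eBayes with trend, R 4.3.3) on log2(FPKM + 0.1) of the 14612 genes whose mean reached 0.1 FPKM, and p-values were adjusted by Benjamini-Hochberg over all of these. On this scale the pseudocount draws fold changes of low genes towards 0, while a value of 0 or a wide spread in a low gene can make the mean log2 difference larger than the ratio of means. An exact permutation test of 3 against 2 samples cannot go below p = 0.1. Fragment numbers were inferred from the steps between FPKM values, 0.01698 to 0.01965 FPKM for 1 fragment on 1 kb, with RefSeq exonic lengths. Of short single-exon genes (30 to 300 bp, snoRNA genes left out) 91.8 to 95.0% came out within 0.1 of a whole number, where 20% would by chance. The tool was checked on simulated data.

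Members were placed on GRCm38.p6 by RefSeq symbol (109) or synonym (1). The host was the gene of the table, other than small RNA genes, on the same strand with the shortest span around the member, and where 2 rows shared a RefSeq gene, the row with its symbol. Sequences came from GRCm38 at GENCODE vM21 or RefSeq spans. Members and lists were chosen with earlier results of these data known. Named by rule were the imprinted-locus members, the 5 highest and 5 lowest log2 fold changes among other called members with a mean of at least 1 FPKM and no overlap, the 5 highest levels, members with a peak within 20 kb, *Snord118*, *Snord13*, *Snord14* and *Snora73* where listed, their hosts, genes of the imprinted domains, core snoRNP proteins and *Zfp57*. Other genes were named with values in view. Same-numbered WT and KO samples did not deviate together (correlations of -0.07 and -0.04), so the numbers were not taken as pairs. The alternatives cover pseudocounts, filters, scaling, the variance model, chromosome medians, a replicate block, size of change, single libraries and peak windows. Those with a pseudocount of 1 fragment and with the variance modelled on fragment number were added after the data were seen.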

Additional observations from a re-analysis of the deposited data

How the results depend on the processing

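The 22 called members became 13 without a filter on low values, 9 without a variance trend, 9 with the trend on fragment number, 14 with chromosome medians subtracted and 0 when a log2 fold change of at least 1 was also asked for. Without single libraries the count ran from 13 (without the second KO library) to 21. The 21 called members outside imprinted loci became 12, 9, 8, 13 and 0 in the same order, and 13 to 21 without single libraries. The call of *Snord64* was lost without a variance trend (0 called) and with the size limit (0 called), and the count was 0 or 1 without single libraries. The 37 called hosts became 22 without a trend and 0 with the size limit, and 24 (without WT replicate 3) to 31 without single libraries. The 10 called particle protein genes became 5 without a trend, 6 with chromosome medians subtracted and 0 with the size limit, and 6 to 7 without single libraries, with 6 without WT replicate 1 or 3. The cause was not tested, except that fewer samples or a stricter rule lower a count by construction. Of all genes, 41.1% were called in the main fit and 44.0% with the trend on fragment number. Shares of all genes under the other settings are not given here. Whether the lists lost more calls than other genes under those settings cannot be read from these counts. The replicate numbers are shared without a stated pairing. A fit with the replicate number as a block, which in effect leaves out WT replicate 3, gave 23 called members, 22 outside imprinted loci, 13 hosts and 5 protein genes. With chromosome medians subtracted, *Snord49a* (0.44, adjusted p = 0.027), *1810032O08Rik* (0.01), *Tsr1* (0.12), *Rpl23* (0.13, adjusted p = 0.049), *Gnb2l1* (0.12) and, uncalled in both, *AI450353* (0.18) changed sign. The other settings (pseudocounts, a mean of at least 1 FPKM, median centring, quantile normalization) kept each total of calls within 1.5 times (members higher in KO outside imprinted loci went from 14 to 9 with quantile normalization) and the direction of each called named gene, while uncalled values near 0 could change sign (*Rpl3*, -0.08 with quantile normalization). Few fragments limit the precision of the members, of which 15 rest on under 20.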
